A study of Mus musculus with 168 samples.

Results

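Cortex of 10-month-old mice carrying the Q111 allele of the Huntington's disease gene Htt was compared with cortex of mice of the same age carrying the Q20 allele. Both groups were heterozygous knock-ins, with an expanded (Q111) or a short (Q20) CAG repeat on 1 Htt allele and a normal mouse Htt allele beside it, on the C57BL/6 strain. The members were the libraries that the labels give as heterozygous Q111 or Q20 at 10 months, which made 16 of 168 libraries, 8 of each genotype with 4 females and 4 males in each. The remaining libraries cover the alleles Q80, Q92, Q140 and Q175 and wild type (WT), at 2, 6 and 10 months. Messenger RNA was selected by its polyA tail from flash-frozen tissue and sequenced. Per the labels, Q111 mice were caged with Q111 mice and Q20 mice with Q20 mice, so that allele and cage group cannot be told apart in any Q111 and Q20 comparison. The labels number the libraries as replicates without saying that each is a separate mouse, and p-values measure the spread between these libraries.

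Huntingtin is a large scaffold protein, and the CAG repeat in its first exon is translated into a run of glutamines. Longer runs cause Huntington's disease, in which projection neurons of the striatum and cortex are affected most and glial cells also change. Because the repeat is knocked into the mouse's own gene, it is read under the Htt promoter in every cell that uses the gene, at the dose of 1 allele.

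The coding part of Htt exon 1 is shown because the 2 genotypes differ by design in the length of its CAG run, which stands in capitals as the GRCm38 reference has it (chr5:34761907-34762109, plus strand).
Htt exon 1, coding part: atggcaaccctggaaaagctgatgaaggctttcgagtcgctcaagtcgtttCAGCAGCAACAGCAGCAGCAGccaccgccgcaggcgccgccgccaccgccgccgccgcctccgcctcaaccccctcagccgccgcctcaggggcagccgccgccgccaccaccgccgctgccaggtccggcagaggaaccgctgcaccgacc
In the reference the run holds 7 glutamine codons, 6 of them CAG and 1 CAA, at codons 18 to 24 of the protein. The repeat in the knock-in libraries was not read from the deposited counts, and 111 and 20 are the nominal lengths in the allele names.

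Of the 4 genes that passed at an adjusted p under 0.05, 2 had a start region in the RefSeq promoter windows (GRCm38.p6, 250 bases before to 50 bases after the start site), which are shown with motifs in capitals. Car2 and Fads1 are named only. Both strands were searched for a GC box (GGGCGG), for a cAMP response element (TGACGTCA), for a TATA box (TATAAA) and for a CCAAT box.
6030443J06Rik (chr5:22550163-22550462, plus strand): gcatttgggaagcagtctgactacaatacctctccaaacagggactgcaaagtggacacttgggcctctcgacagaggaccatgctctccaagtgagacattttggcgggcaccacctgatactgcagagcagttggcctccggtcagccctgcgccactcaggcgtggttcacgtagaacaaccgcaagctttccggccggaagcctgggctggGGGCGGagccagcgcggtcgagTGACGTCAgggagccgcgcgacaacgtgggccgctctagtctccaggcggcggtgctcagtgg
Il33, the first of 2 start sites (chr19:29924863-29925162, plus strand): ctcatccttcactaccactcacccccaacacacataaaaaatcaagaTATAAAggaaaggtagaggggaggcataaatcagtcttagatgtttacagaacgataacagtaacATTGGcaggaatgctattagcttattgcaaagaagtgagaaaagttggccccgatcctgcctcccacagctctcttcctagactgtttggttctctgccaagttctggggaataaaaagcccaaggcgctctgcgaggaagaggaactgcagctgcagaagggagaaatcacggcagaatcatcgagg
The 6030443J06Rik window held a GC box, as 35.7% of 32851 such windows do, and a cAMP response element, as 1.79% do. The Il33 window held a TATA box, as 13.6% of windows do, and a CCAAT box on the minus strand, where 37.4% of windows hold one on either strand and the plus strand reads ATTGG. The motifs do not overlap, and a match of letters is a description of the window only.

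The Q111 libraries held 31820130 to 43260876 estimated counts each, and the Q20 libraries 31271785 to 43744187. Levels are given as CPM, the count of a gene relative to the library total after TMM scaling. Xist lay between 1210 and 1570 CPM in the 8 females and Ddx3y between 60.2 and 71.6 CPM in the 8 males, with at most 1.55 CPM of Xist in males and 0.0885 CPM of Ddx3y in females. The markers of cortical glutamatergic neurons summed to 5810 to 6151 CPM in Q111 and 5632 to 6435 CPM in Q20, and no marker of any neuronal or glial list was at 0 in all 16 libraries. A few libraries stood apart. The median correlation of a library with the others of its age was 0.9873 for Q111 male 3, 0.9869 for Q111 male 4 and 0.9862 for Q20 male 2, against 0.9892 to 0.991 for the remaining 13.

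Htt itself was read at similar levels in both genotypes. It stood at 148, 199 and 214 CPM (lowest, median and highest of 8 libraries) in Q111 and at 146, 207 and 213 CPM in Q20. The groups overlapped almost fully, and the lowest value of each group came from a library that stood apart, Q111 male 3 and Q20 male 2. Per gene length, Htt averaged 16.7 ± 2.37 FPKM in Q111 and 16.9 ± 2.09 FPKM in Q20 (SD, n = 8 each). The log2 difference was -0.03 ± 0.08 (standard error, SE) with an adjusted p above 0.99 in edgeR's quasi-likelihood test. Without Q111 male 3 it was 0.01, on the other side of 0. Without the 6 libraries of 10 months that correlated least, of which 3 are among the 16 here, it was -0.0057 with a smaller error of 0.04.

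Across the transcriptome 4 genes passed at an adjusted p under 0.05. Car2, Fads1 and Il33 fell and the long noncoding RNA 6030443J06Rik rose, which is 0.0232% of 17219 genes tested (0.0174% lower and 0.00581% higher). At a raw p under 0.05 there were 468 genes (2.72%), 222 of them higher (1.29%) and 246 lower (1.43%) in Q111. The median log2 difference over all genes was 0.00075.

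Car2 (ENSMUSG00000027562, GRCm38 chromosome 3 from 14886273 to 14900770), the gene of carbonic anhydrase II, which hydrates CO2 and in the brain is abundant in oligodendrocytes, stood at 129, 146 and 161 CPM (lowest, median and highest) in Q111 and at 157, 174 and 181 CPM in Q20. In 7 of 8 Q111 libraries it lay under the lowest Q20 library, and only Q111 male 1, the highest of its group, overlapped with Q20. Car2 fell by 14.3% (log2 difference -0.22 ± 0.04, adjusted p = 0.0272).

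Il33 (ENSMUSG00000024810, chromosome 19 from 29925114 to 29960718) encodes interleukin 33, a nuclear cytokine that glial cells release on damage. It stood at 36.4, 58.1 and 60.9 CPM in Q111 and at 63.9, 66.8 and 74.2 CPM in Q20. The groups did not overlap, and Q111 male 4, at 36.4 CPM, lay far under the next library of its group at 52.6 CPM. Il33 fell by 19.0% (log2 difference -0.30 ± 0.06, adjusted p = 0.0273), and the log2 difference was -0.24 without Q111 male 4 (adjusted p = 0.0492). Il33 was 1 of 5 genes in the whole table (0.029%) whose groups did not overlap in CPM, with Rint1 and Qdpr, which were also lower in Q111, and Drc1 and Ap3b2, which were higher.

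Fads1 (ENSMUSG00000010663, chromosome 19 from 10182888 to 10196877, with the microRNA gene Mir6993 inside it on the same strand) encodes a fatty acid desaturase that makes long polyunsaturated fatty acids such as arachidonic acid. It stood at 201.5, 205.4 and 215.1 CPM in Q111 and at 212.5, 227.2 and 249.3 CPM in Q20. The Q111 libraries lay close together and 7 of 8 were under the lowest Q20 library. Fads1 fell by 9.69% (log2 difference -0.15 ± 0.03, adjusted p = 0.0273). The neighbouring desaturase gene Fads2, at 61.4, 66.7 and 68.4 CPM in Q111 and 64.6, 67.8 and 74.2 CPM in Q20, had a log2 difference of -0.05 ± 0.04 that did not pass.

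6030443J06Rik (ENSMUSG00000097207, chromosome 5 from 22550432 to 22807850) is a long intergenic noncoding RNA without a known role. It was outside the rule for named genes because of its clone name and is given because it is 1 of 4 genes that passed. It stood at 0.415, 1.57 and 1.99 CPM in Q111 and at 0.326, 0.619 and 0.984 CPM in Q20. In 7 of 8 Q111 libraries it lay above the highest Q20 library, while Q111 male 3, which stood apart, lay at 0.415 CPM. Without that library the log2 difference was 1.34 (adjusted p = 0.00214). The RNA rose 2.30-fold (log2 difference 1.20 ± 0.24, adjusted p = 0.0273). Per length it averaged 0.403 ± 0.0942 FPKM in Q111 and 0.239 ± 0.0939 FPKM in Q20 (SD, n = 8 each). In relative terms these means lay closer together than the 2.30-fold change in counts, before 0.1 was added. On log2(FPKM + 0.1), a scale that further lowers the change of low genes, limma gave 0.59 ± 0.15 without passing (adjusted p = 0.480). Why FPKM and counts differ for this RNA was not tested. 6030443J06Rik overlaps Gm21846 on the same strand and Gm24512 and Rpl17-ps5 on the other. Whether counting used strand is not given in the sources used here, so reads of these models cannot be told apart.

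**Figure D1:**
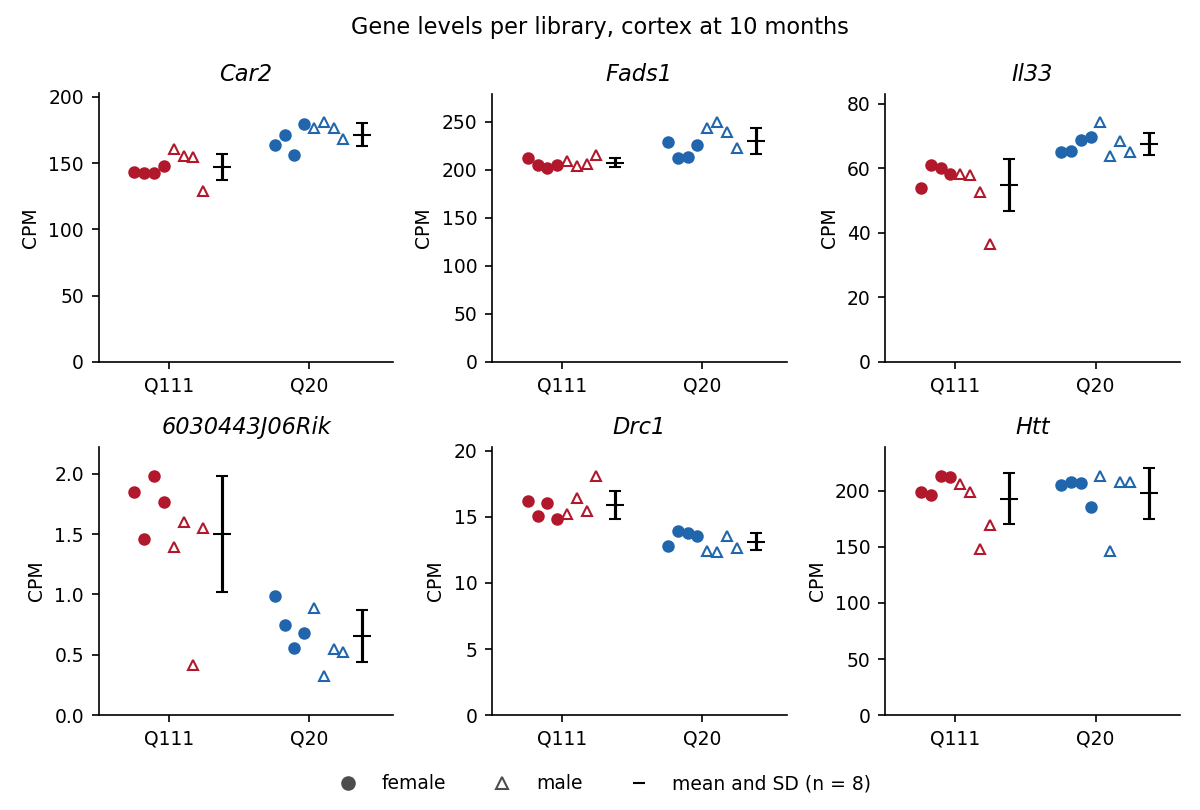
CPM in each of the 8 Q111 and 8 Q20 libraries at 10 months for the 4 genes that passed, for Drc1 and for Htt, with filled circles for females, open triangles for males and bars for the mean and SD. Il33 and Drc1 do not overlap between genotypes, 1 Q111 male at 0.415 CPM lies with Q20 for 6030443J06Rik, and Htt overlaps between genotypes with a low male in each.

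The 4 calls rest on the spread shared by all 56 libraries of the age. Fitted on the 16 libraries of Q111 and Q20 alone, 0 genes passed in edgeR's quasi-likelihood test, with adjusted p of 0.187 for Car2, 0.468 for Fads1, 0.754 for Il33 and 0.210 for 6030443J06Rik and nearly the same log2 differences. With the L number of the library names, a label whose meaning is not given, as a term, 0 genes passed as well, with adjusted p of 0.0804 for Car2, Fads1 and Il33 and 0.192 for 6030443J06Rik. Left out singly, Q111 female 1, female 3 or male 3 or Q20 female 3 or male 1 left 2 genes called, and Q20 female 4, male 2 or male 3 left 0. Over the 16 fits with 1 library left out, Car2 passed in 13, Il33 in 9, Fads1 in 8 and 6030443J06Rik in 7. Without the 6 libraries of 10 months that correlated least, Car2 (adjusted p = 0.0184), Il33 (0.0184), 6030443J06Rik (0.00526) and Enpp6 (8.2e-06) passed and Fads1 did not (0.0720).

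Just outside the threshold lay Drc1, Grm3 and Prkag2. Drc1 (ENSMUSG00000073102, chromosome 5 from 30281388 to 30366695), a subunit of the dynein regulator of motile cilia, stood at 14.9, 15.8 and 18.1 CPM in Q111 and at 12.3, 13.2 and 13.9 CPM in Q20. All 8 Q111 libraries lay above all 8 Q20 libraries, with a log2 difference of 0.28 ± 0.06 and an adjusted p of 0.0607. Grm3 (chromosome 5 from 9485541 to 9725170), a metabotropic glutamate receptor of astrocytes and neurons, stood at 47.4, 50.5 and 57.3 CPM in Q111 and 54.3, 57.7 and 60.0 CPM in Q20 (log2 difference -0.16 ± 0.04, adjusted p = 0.180). Prkag2 (chromosome 5 from 24862744 to 25100642), a regulatory subunit of the energy-sensing kinase AMPK, stood at 71.9, 74.3 and 79.1 CPM in Q111 and 78.8, 81.8 and 86.0 CPM in Q20 (log2 difference -0.13 ± 0.03, adjusted p = 0.214). For Grm3 6 and for Prkag2 7 of the 8 Q111 libraries lay under the lowest Q20 library. DESeq2 called 7 genes in all, and Drc1 (adjusted p = 0.0147), Grm3 (0.0290) and Prkag2 (0.0436) passed there.

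The next genes by p did not pass in either direction. The lipid phosphatase Plpp3, an astrocyte marker, stood at 203, 222 and 231 CPM in Q111 and 228, 239 and 271 CPM in Q20. The lipid-domain membrane protein gene Tlcd1 stood at 19.88, 21.01 and 22.99 CPM in Q111 and 21.58, 24.48 and 25.30 CPM in Q20. The asparaginase relative Asrgl1 stood at 165, 179 and 185 CPM in Q111 and 180, 192 and 206 CPM in Q20. In each of these 3 genes all 8 Q111 libraries lay under the Q20 median although the groups overlapped, with log2 differences of -0.16 ± 0.04, -0.17 ± 0.04 and -0.11 ± 0.03.

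On the higher side, Enpp6, a choline-releasing phosphodiesterase that young oligodendrocytes make (overlapped on the other strand by 4930579M01Rik), stood at 3.24, 6.67 and 7.63 CPM in Q111 and 2.49, 4.85 and 5.28 CPM in Q20. In 6 Q111 libraries it lay above every Q20 library, and the 2 that did not were males 3 and 4, which stood apart. Its log2 difference was 0.47 ± 0.12 (adjusted p = 0.297), and 0.57 without Q111 male 4, where it passed (adjusted p = 0.0226). The glycosyltransferase gene Galnt11, which starts O-linked glycosylation, stood at 38.1, 44.0 and 44.9 CPM in Q111 and 35.6, 37.3 and 41.4 CPM in Q20 (0.20 ± 0.06). The remaining higher genes were low in both groups, with medians of 0.331 to 4.68 CPM in Q111 and 0.174 to 3.54 CPM in Q20. They were the protease gene Tmprss7 (0.31 ± 0.09), the transglutaminase gene Tgm3 (0.31 ± 0.08), the lectin gene Cd209c (0.39 ± 0.11), Fsbp, which overlaps Rad54b on the same strand (0.59 ± 0.17), and Runx2os1, which is antisense to Runx2 and cannot be told apart from it without strand (0.97 ± 0.28). Htt, Prkag2, Tlcd1, Asrgl1, Tgm3, Galnt11 and, among the genes given for longer alleles, Arpp21, Shox2 and Pax2 also overlap other gene models, and reads may be shared there.

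The same contrast in younger mice, and the longest alleles against wild type, use libraries that the 10-month contrast of Q111 and Q20 does not. At 6 months 0 of 17611 genes passed in edgeR's test (0%; 1368 or 7.77% at a raw p under 0.05, and 9 passed in DESeq2), and at 2 months 0 of 17194 (0%; 447 or 2.6% at a raw p under 0.05). At 6 months the leading numbers of the library names form separate blocks for Q111 and Q20, so that allele and block cannot be told apart there. In Q140 against WT at 10 months 61 genes passed (0.354%), and in Q175 against WT 1483 (8.61%). The library names of WT at 10 months carry a Q20 code, as those of Q20 do. The names of Q111, Q140 and Q175 carry their own allele. What this code means for WT is not given, so allele and code cannot be told apart in comparisons of these alleles with WT.

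Car2, Fads1 and Il33 were lower again in Q140 and Q175 against WT. Il33 differed by -0.15 ± 0.04 between Q111 and Q20 at 6 months and by 0.06 ± 0.05 at 2 months, and by -0.23 ± 0.06 in Q140 and -0.31 ± 0.06 in Q175 against WT. Car2 differed by -0.10 ± 0.04 at 6 months and 0.04 ± 0.05 at 2 months, by -0.15 ± 0.04 in Q140 and by -0.23 ± 0.04 in Q175. Fads1 differed by -0.03 ± 0.02 at 6 months and -0.05 ± 0.03 at 2 months, by -0.11 ± 0.03 in Q140 and by -0.20 ± 0.03 in Q175. Of these values, those of Q175 passed in all 3 genes (adjusted p = 0.00023 for Il33, 8.2e-05 for Car2 and 5.5e-07 for Fads1), and the others did not. The difference between 10 and 6 months in the Q111 and Q20 contrast had raw p of 0.00293 for Fads1, 0.0348 for Car2 and 0.0487 for Il33, but no gene passed that test over all 17834 genes (0%; 589 or 3.3% at a raw p under 0.05, and 0 called by DESeq2).

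6030443J06Rik had another pattern over these libraries. It differed by 0.98 ± 0.28 at 6 months and 1.07 ± 0.28 at 2 months between Q111 and Q20 (neither passed), but by -0.07 ± 0.26 in Q140 and -0.01 ± 0.26 in Q175 against WT. Its median levels at 10 months were 1.57 CPM in Q111, 1.03 in Q80, 0.932 in Q92, 0.631 in Q140, 0.630 in Q175, 0.641 in WT and 0.619 in Q20. Q111, Q80 and Q92 spread up to between 1.92 and 1.99 CPM, while the highest library of the 4 remaining genotypes lay at 0.984 CPM, and those 4 cannot be put in order beyond their spread. At 6 months it stood at 0.366, 1.63 and 1.98 CPM in Q111 and at 0.435, 0.683 and 1.09 CPM in Q20, and the lowest Q111 library lay under the lowest Q20 library.

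Several genes that did not pass between Q111 and Q20 passed in Q140 or Q175 against WT. Enpp6 differed by 0.27 ± 0.08 at 6 months and 0.00 ± 0.13 at 2 months, and rose by 0.52 ± 0.12 in Q140 and 0.71 ± 0.12 in Q175 against WT (both passed). Plpp3 differed by -0.02 ± 0.03 at 6 months and -0.03 ± 0.04 at 2 months, and fell in Q140 (-0.17 ± 0.04) and Q175 (-0.28 ± 0.04), where both values passed. Grm3, Tlcd1 and Asrgl1 fell in Q175 against WT, with log2 differences of -0.24 ± 0.04, -0.22 ± 0.04 and -0.16 ± 0.03. Drc1 had 0.22 ± 0.05 at 6 months and 0.27 ± 0.05 at 2 months, near its value at 10 months, and 0.12 ± 0.06 in Q140 and -0.08 ± 0.06 in Q175 against WT, none of which passed.

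**Figure D2:**
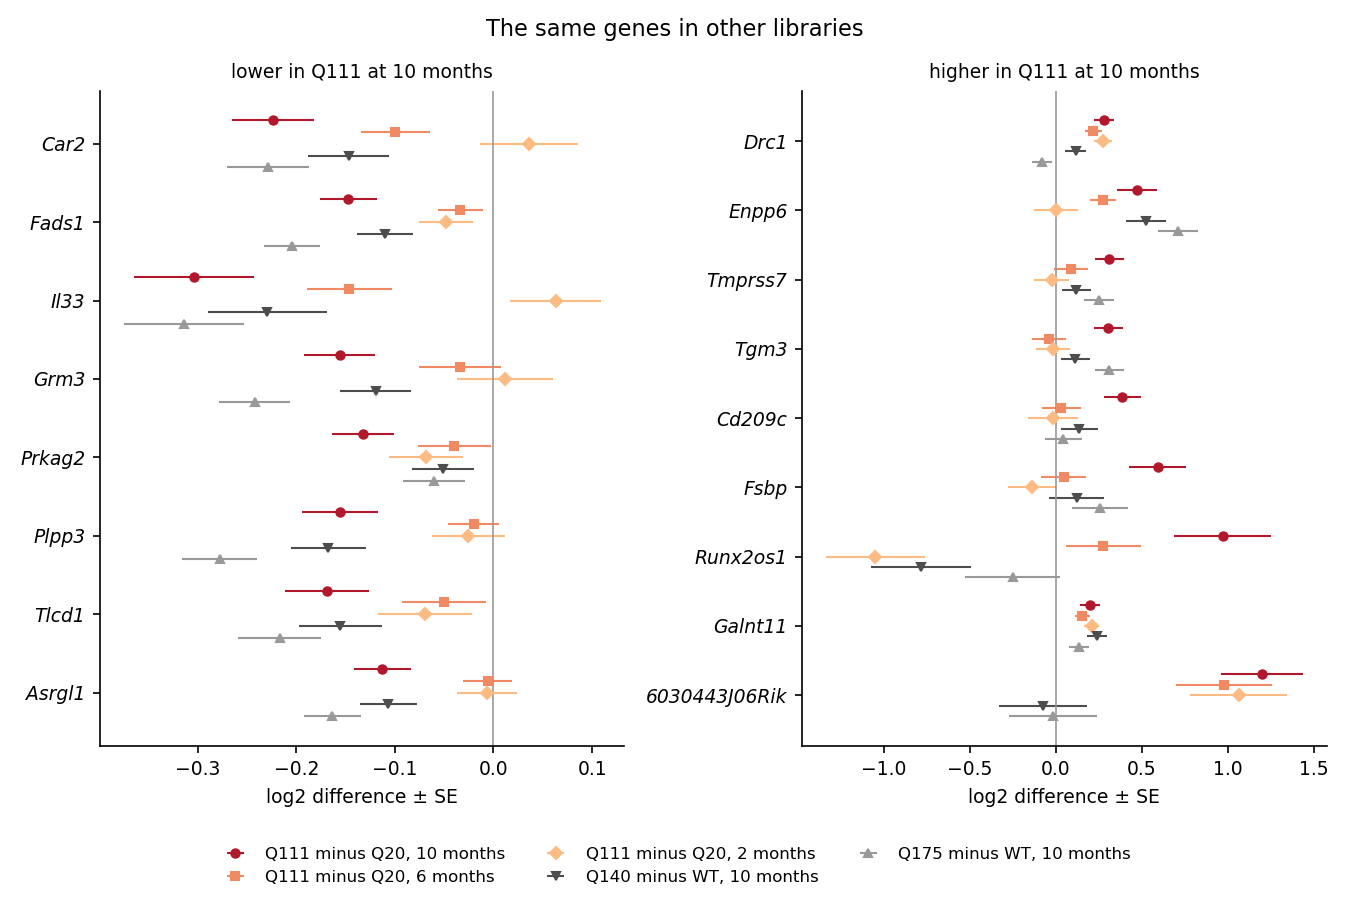
Log2 differences with SE of the named genes at 10 months (dark red circles) beside those in libraries not used there: Q111 minus Q20 at 6 months (orange squares) and 2 months (light orange diamonds), and Q140 minus WT (dark grey, triangles pointing down) and Q175 minus WT (light grey, triangles pointing up) at 10 months. The 3 genes that fell lie left of 0 in Q140 and Q175, while 6030443J06Rik lies at 0.98 and 1.07 in younger Q111 mice and near 0 in Q140 and Q175.

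Astrocyte markers were lower in Q111 in 15 of 16 genes, each by a small amount that did not pass. Astrocytes take up glutamate, convert it to glutamine and pass ions and metabolites through gap junctions. Of the 16 markers 9 were lower at a raw p under 0.05, a level that 1.43% of all genes reached on the lower side, but 0 passed over all genes in edgeR's test, and 0 in DESeq2. The median log2 difference of the list was -0.11 against 0.00075 over all genes. The gap junction gene Gja1 stood at 156, 164 and 181 CPM in Q111 and 164, 181 and 211 CPM in Q20 (log2 difference -0.16 ± 0.04). Glutamine synthetase Glul stood at 1427, 1537 and 1626 CPM in Q111 and 1505, 1666 and 1962 CPM in Q20 (-0.14 ± 0.05). The phagocytic bridging gene Mfge8 (-0.18 ± 0.06), the intermediate filament gene Gfap (-0.21 ± 0.08), the bicarbonate transporter gene Slc4a4 (-0.10 ± 0.04), the water channel gene Aqp4 (-0.11 ± 0.06) and the aldolase gene Aldoc (-0.11 ± 0.05) were also lower at a raw p under 0.05. All 8 Q111 libraries lay under the Q20 median for Gja1, Glul and Slc4a4, and the groups overlapped in each.

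The summed astrocyte markers stood at 7736, 8720 and 9092 CPM in Q111 and at 8498, 9131 and 10310 CPM in Q20, with Q111 males 3 and 4 lowest. Without the 6 libraries that correlated least, 15 markers were still lower and the median was -0.098. Of these, 7 were lower at a raw p under 0.05, against 1 marker higher at that level. Fitted on the 16 libraries alone, 9 were lower and 1 higher at that level. Between libraries other than these 16, the list's median was 0.0068 at 6 months and -0.030 at 2 months between Q111 and Q20, -0.097 in Q140 against WT (14 of 16 lower, of which 1 fell) and -0.22 in Q175 against WT (13 lower, of which 12 fell), where 0.151% and 5.23% of all genes fell. In bulk tissue, fewer cells of a type and less RNA per cell cannot be told apart.

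Markers of oligodendrocytes and myelin were lower in 22 of 24 genes, a count that depended on Q111 male 4. Oligodendrocytes wrap axons in myelin, whose proteins include those encoded by Mbp and Mobp. Of the 24 markers 9 were lower and 1 higher at a raw p under 0.05, Car2 passed, and the median was -0.085. Mobp (-0.24 ± 0.08), the lipid hydroxylase gene Fa2h (-0.23 ± 0.07) and the tetraspanin gene Tspan2 (-0.23 ± 0.07) were among the lower ones, with all 8 Q111 libraries under the Q20 median for Fa2h and Tspan2, and Mbp (-0.12 ± 0.07) and Mag (-0.05 ± 0.07) were nearer 0. The summed markers stood at 3335, 5855 and 6049 CPM in Q111 and 5566, 6105 and 6606 CPM in Q20. Q111 male 4 alone was at 3335 CPM, and the next Q111 library lay at 5345 CPM. Without it 14 of 24 markers were lower and the median was -0.028, while 7 were lower and 2 higher at a raw p under 0.05, and Car2 and Enpp6 passed in opposite directions. Without the 6 libraries that correlated least 15 were lower, 8 of them at a raw p under 0.05 against 1 higher, and the median was -0.032.

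The same library had the highest summed choroid plexus markers, 3127 CPM, and the lowest Il33 and Car2 of its group. Choroid plexus, the tissue that makes cerebrospinal fluid in the ventricles, varied widely in both groups (267, 593 and 3127 CPM in Q111, and 276, 1206 and 2314 CPM in Q20), with 11 of 12 markers lower, 0 at a raw p under 0.05 and none at 0 in all 16 libraries. The part of these markers in the differences was not tested. In other libraries the myelin list had medians of -0.024 at 6 months, 0.049 at 2 months, 0.062 in Q140 against WT and 0.026 in Q175 against WT.

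**Figure D3:**
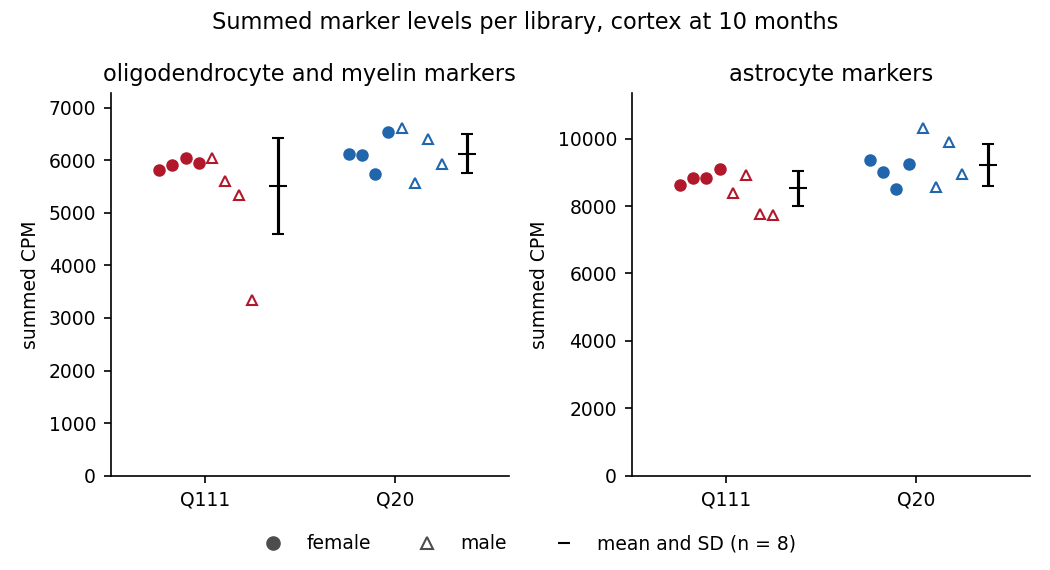
Summed CPM of 24 oligodendrocyte and myelin markers and of 16 astrocyte markers in each Q111 and Q20 library at 10 months, with filled circles for females, open triangles for males and bars for the mean and SD. Q111 male 4 lies at 3335 CPM for myelin, apart from the other 7 Q111 libraries, and the astrocyte sums overlap between genotypes.

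Neuronal lists other than hippocampal neuron markers had medians from -0.0094 to 0.038. Of 29 tested genes of projection neuron signalling, a list of cAMP, calcium and opioid genes lowered in Huntington's disease models, 14 were higher and 15 lower, 1 at a raw p under 0.05, and the median was -0.0014. Of 22 striatal projection neuron markers 11 were on each side, 2 of them higher at a raw p under 0.05 (median -0.0073), and Penk, the enkephalin precursor, stood at 24.7, 30.4 and 53.9 CPM in Q111 and 27.1, 36.7 and 54.5 CPM in Q20 without passing. Upper-layer markers (9 of 12 higher, median 0.024), deep-layer markers (7 of 16 higher, median -0.0094) and glutamatergic markers (6 of 12 higher, median 0.0032) had no gene at a raw p under 0.05, and interneuron markers (16 of 22 higher, median 0.038) had 1. Synaptic vesicle genes were higher in 19 of 22 with a median of 0.024 and 0 at a raw p under 0.05. No gene of these 7 lists passed.

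Of the other lists, only choline and phospholipid metabolism had a gene that passed, Fads1. Of its 19 tested genes 3 were higher and 3 lower at a raw p under 0.05, with a median of -0.015. Hippocampal neuron markers had the lowest median, -0.15, with 8 of 11 lower and 2 at a raw p under 0.05, and their summed level was 233, 247 and 277 CPM in Q111 and 235, 261 and 277 CPM in Q20. Blood markers had the highest, 0.19, with 9 of 9 higher, 0 at a raw p under 0.05, and 95.3, 166.5 and 252 CPM in Q111 and 99.7, 162 and 184 CPM in Q20. Clock genes had 12 of 16 lower and 3 at a raw p under 0.05 (median -0.038), and reactive gliosis genes 11 of 17 lower and 2 at a raw p under 0.05 (median -0.036). Microglia markers (median -0.023), cholesterol synthesis (-0.0094), immediate early genes (0.012), mitochondrially encoded transcripts (-0.018), nuclear genes of the respiratory chain (0.00061), mismatch repair (0.012) and huntingtin partners (0.0071) had 0 at a raw p under 0.05 each. The remaining lists had medians from -0.10 (meningeal) to 0.026 (glutamate receptors) and at most 1 gene at that level in each direction.

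**Figure D4:**
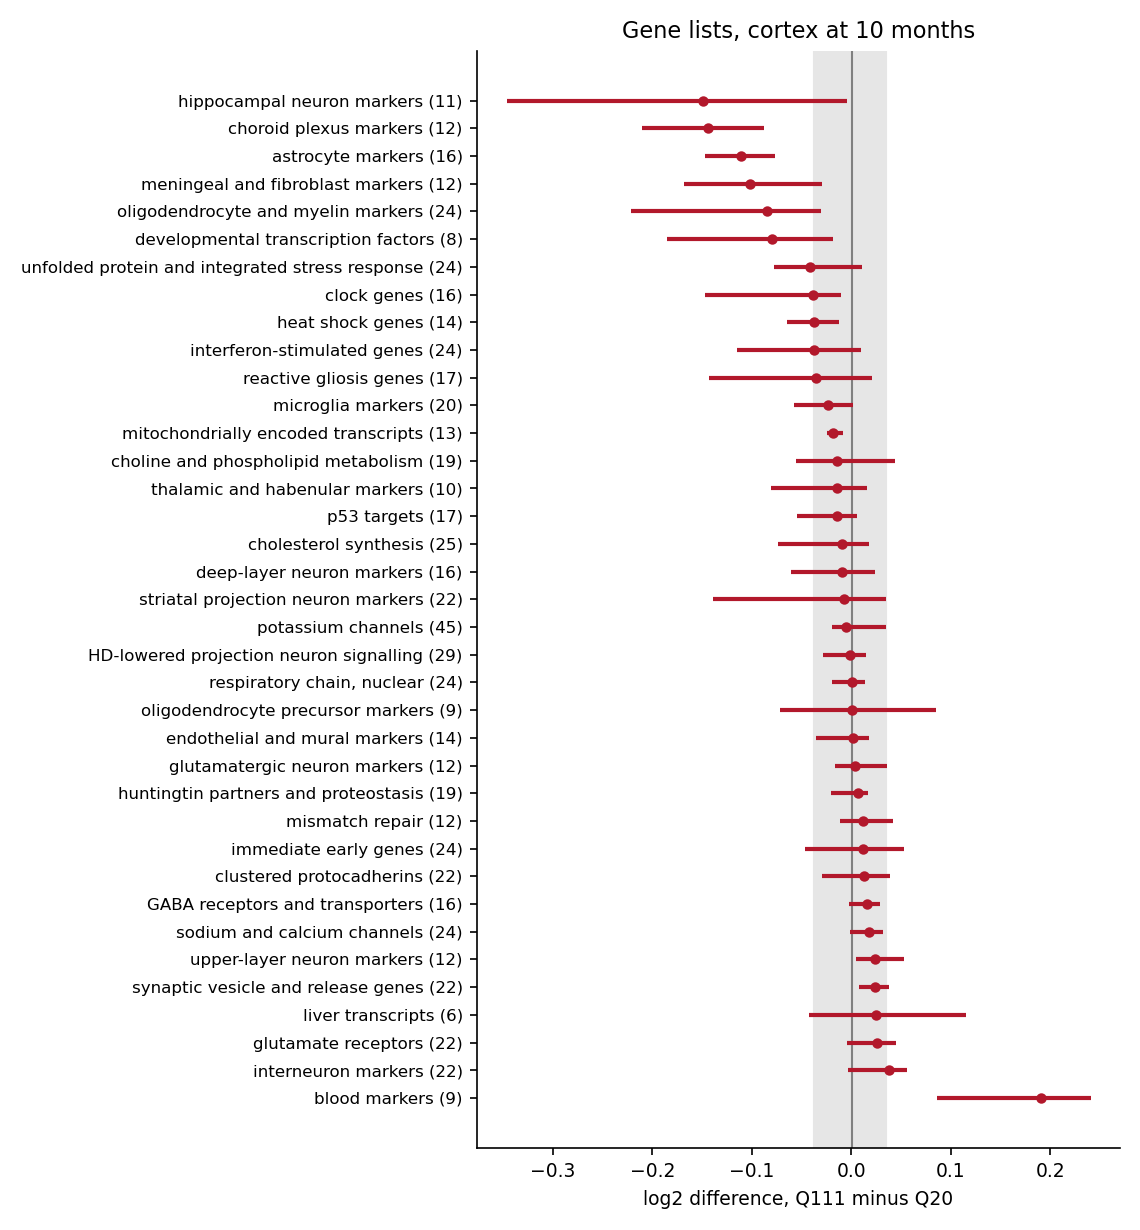
Log2 differences of Q111 minus Q20 at 10 months by gene list, with points for the median and lines for the quartiles over the genes of the list that were tested (their number in brackets); the grey band spans the quartiles of all 17219 genes. The hippocampal, choroid plexus, astrocyte, meningeal and myelin lists have the lowest medians, from -0.15 to -0.085, and blood markers have the highest at 0.19.

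Small p were found at a larger share of genes within 15 Mb of Htt on chromosome 5 than elsewhere, which is given as a description with no test. Within 15 Mb of Htt, a width chosen after the values were seen, 22 of 225 genes (9.78%) were at a raw p under 0.05 and 13 (5.78%) at a raw p under 0.01, against 0.668% of all genes at the stricter level. On the rest of chromosome 5 these were 26 of 811 (3.21%) and 9 (1.11%), and on other chromosomes 420 of 16183 (2.6%) and 93 (0.575%). The larger share was not particular to Q111. At the stricter level it was 8% in Q80, 5.33% in Q92, 6.67% in Q140 and 16.4% in Q175, against the same Q20 libraries. Those comparisons had 1.37%, 1.1%, 1.43% and 10.6% on other chromosomes. Q111 against WT had 6.67% near Htt and 0.636% on other chromosomes, and WT against Q20 had 2.22% and 0.161%. Among the 13 of Q111 against Q20 were 6030443J06Rik, Drc1, Prkag2, Galnt11, Rint1 and Qdpr. The 13 were not spread evenly around Htt. All but Qdpr lay on the side of lower positions, from -4.4 Mb for Drc1, the nearest, to -12.0 Mb for 6030443J06Rik. Qdpr lay at 10.5 Mb on the other side. Rint1, which acts in transport between the endoplasmic reticulum and the Golgi, stood at 14.11, 14.79 and 15.96 CPM in Q111 and 15.99, 16.89 and 17.55 CPM in Q20 (-0.17 ± 0.04). Qdpr, which recycles the cofactor of aromatic amino acid hydroxylases, stood at 102, 133 and 144 CPM in Q111 and 145, 148 and 161 CPM in Q20 (-0.19 ± 0.05).

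In younger mice all 13 had the same sign at 6 months and 12 at 2 months, 11 of them at a raw p under 0.05 at each age. Of the 102 other genes at a raw p under 0.01, 71 had the same sign at 6 months, 12 (11.8%) at a raw p under 0.05, and 60 at 2 months, 2 (1.96%) at that level. Of all genes tested, 50.3% had the same sign at 6 months, 4.09% at a raw p under 0.05, and 51.8% at 2 months, 1.57% at that level. The share of the 102 at that level at 2 months was thus near that of all genes. Those 102 had the same sign in 80 genes in Q140 against WT and in 81 in Q175 against WT, with 32 (31.4%) and 47 (46.1%) at a raw p under 0.05, against 4.23% and 13% of all genes. The p of Q140 and Q175 rest on the spread per gene that also served to pick the 102, and are not independent of it. The 13 include the gene models Gm5067, Gm10471, 5031410I06Rik and Gm5862, which lie together between 26007027 and 26105362, and reads shared between related models there were not tested. What sets this stretch apart was not tested.

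**Figure D5:**
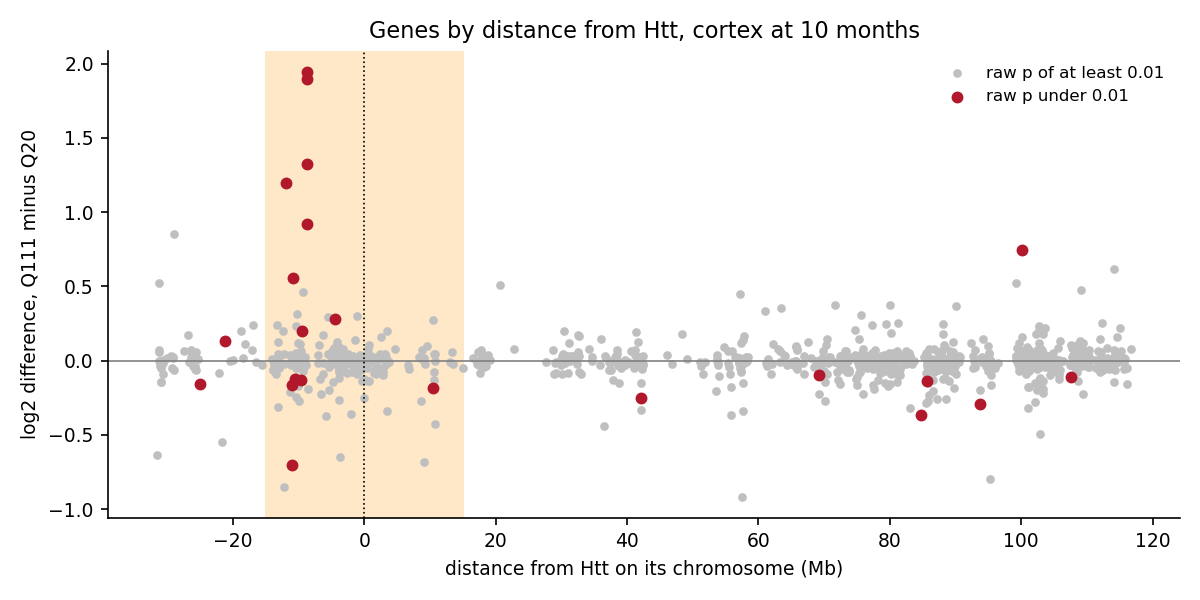
Log2 difference of Q111 minus Q20 at 10 months for each tested gene of chromosome 5 against its distance from Htt in Mb, with red points for a raw p under 0.01 and a shaded band for 15 Mb on each side of Htt. The band holds 13 red points among 225 genes, with 6030443J06Rik at 1.20, and the rest of the chromosome holds 9 among 811. All red points of the band except Qdpr lie left of Htt.

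The sexes were compared because each group held 4 females and 4 males. In females 0 genes passed in edgeR's test (0%; 580 or 3.37% at a raw p under 0.05), and in males 1 (0.00581%), Il33, at -0.40 ± 0.08 (adjusted p = 0.0429), against -0.21 ± 0.08 in females. Without Q111 male 4, a setting chosen after seeing the data, Il33 differed by -0.27 ± 0.06 in males and did not pass (adjusted p = 0.181), and 0 genes passed in males (393 at a raw p under 0.05). The difference of the 2 contrasts for Il33 was -0.20 ± 0.11 (adjusted p = 0.998 in edgeR's quasi-likelihood test) and -0.07 ± 0.08 without that library, and 0 genes passed the test of that difference (0%; 622 or 3.61% at a raw p under 0.05, and 1 called by DESeq2). Car2 had -0.23 ± 0.05 in males and -0.22 ± 0.05 in females, a difference of -0.0050 ± 0.08. The medians of the marker lists were -0.19 in males and -0.053 in females for astrocytes and -0.23 in males and 0.015 in females for myelin, a gap that was not tested, and the libraries that stood apart were all male. Without Q111 male 4 the medians in males were -0.17 for astrocytes and -0.079 for myelin.

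Longer alleles were set against Q111 at 10 months to see where Q111 lies, and these comparisons share the Q111 libraries with the one above. In Q140 against Q111 5 genes passed (0.029%), and 9 in DESeq2. Arpp21, a cAMP-regulated phosphoprotein of projection neurons, stood at 308, 339 and 352 CPM in Q140 and 365, 383 and 422 CPM in Q111, without overlap, and fell (-0.21 ± 0.04, adjusted p = 0.0298). The olfactory receptor gene Olfr78 (-0.52 ± 0.10) and the neuropeptide receptor gene Qrfpr (-0.57 ± 0.12) fell as well, as did 6030443J06Rik (-1.22 ± 0.24). The homeobox gene Shox2 passed as higher (3.14 ± 0.63) with a wide spread in Q140 (1.03 ± 1.77 CPM, mean and SD, n = 8). It stood at 0.0330, 0.165 and 4.86 CPM in Q140 and 0.0236, 0.105 and 0.248 CPM in Q111. Without the 6 libraries that correlated least, 0 genes were called higher.

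In Q175 against Q111 940 genes passed (5.46%), 306 of them higher (1.78%) and 634 lower (3.68%). The transcription factor gene Onecut2 stood at 10.2, 13.4 and 15.5 CPM in Q175 and 3.62, 5.42 and 6.41 CPM in Q111 (1.35 ± 0.11, adjusted p = 1.8e-12). The Polycomb gene Cbx8, the growth cone gene Dpysl3 and the transcription factor gene Pax2 rose with it, and the kinase genes Hipk4 and Plk5, the orphan receptor gene Gpr153, the lipid-transfer domain gene Stard8 and the upper-layer marker Lamp5 fell (-0.52 to -1.63). Between Q111 and Q20 Pax2 differed by 0.30 ± 0.37, and Arpp21 and the other genes of Q175 named here differed by values from -0.13 ± 0.07 (Gpr153) to 0.04 ± 0.05 (Stard8). Olfr78 differed there by 0.26 ± 0.10, Qrfpr by 0.27 ± 0.11 and Shox2 by -0.57 ± 0.80, where Olfr78 and Qrfpr were at a raw p under 0.05. None of these genes passed there. Of the genes called between Q111 and Q20, Fads1 fell further in Q175 (-0.10 ± 0.03, adjusted p = 0.0278), while Car2 (-0.06 ± 0.04) and Il33 (-0.06 ± 0.06) differed from Q111 without passing, and 6030443J06Rik was lower in Q175 than in Q111 (-1.16 ± 0.24, adjusted p = 0.00076).

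Htt was lower in Q175 than in Q111, at 131, 159 and 166 CPM in Q175 and 148, 199 and 214 CPM in Q111 (-0.30 ± 0.08, adjusted p = 0.0166). In Q140 against Q111 it differed by -0.23 ± 0.08 without passing (adjusted p = 0.618). With wild type in place of Q20, 1 gene passed against Q111 (0.00581%), Abhd1, a gene of the hydrolase family, which stood at 4.22, 4.68 and 6.15 CPM in Q111, 1.32, 1.86 and 4.87 CPM in WT and 4.72, 5.23 and 5.81 CPM in Q20.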

How the data were processed

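The authors deposited estimated counts per gene, 17.7% of them not whole numbers, and FPKM for the same 168 libraries. Per the submitters' processing notes CASAVA 1.8.2 was used, while aligner, quantifier, build and annotation were not given in the sources used here. Of 39179 gene IDs 37607 were matched to GENCODE M21 (GRCm38) for positions, and the unmatched IDs held 0.32% of counts. Estimated counts were rounded, filtered with filterByExpr (minimum count 10, minimum total 15, by genotype), scaled by TMM and tested with edgeR 4.0.16 (quasi-likelihood F test, robust, two-sided) in R 4.3.3. All 56 libraries of 10 months entered the fit with genotype and sex as terms, and genes were called at a Benjamini-Hochberg adjusted p under 0.05 across the whole table. Standard errors are the log2 difference divided by the square root of F. No 2 libraries held the same values, and the chi-square per degree of freedom within groups was at least 3.76.

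Named genes were Htt, the 8 genes each way with the smallest p without clone names (those that did not pass given as values), members of lists that passed, up to 5 each way in tests of a difference, the sex check genes and the 3 genes each side of the threshold. Values of other genes, among them Fads2, Rint1, Qdpr, Penk and the glial markers, were chosen after they were seen. The groups compared, the 37 gene lists (692 of 697 genes found) and the tests were chosen with earlier results of these data known. Alternatives were DESeq2 1.42.0, limma 3.58.1 on log2(FPKM + 0.1) and log2(FPKM + 1) with a minimum mean of 0.1 FPKM, other scaling, filters and terms, and leaving out libraries. The scripts were tested on simulated data. Some results are not reported here.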

Additional observations from a re-analysis of the deposited data

Results flagged for a closer look

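Of 40 groups of 8 libraries looked at, 5 held a library whose gap to the nearest other was large for the range of its group, and chance gives this in about 1 in 20 groups. Q111 male 4 had 36.4 CPM of Il33, where the nearest Q111 library had 52.6 CPM, and 3340 CPM of summed oligodendrocyte and myelin markers, where the nearest had 5340 CPM. Q111 male 3 had 0.415 CPM of 6030443J06Rik, where the nearest Q111 library had 1.39 CPM, and 38.1 CPM of Galnt11, where the nearest had 43.0 CPM. Q20 male 2 had 146 CPM of Htt, where the nearest Q20 library had 186 CPM. These 3 also had the lowest median correlations among the 16.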

How the results depend on the processing

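The 4 calls became 7 with DESeq2, 2 with limma on log2(FPKM + 0.1) without a filter and 1 with wild type in place of Q20. The 1 call against wild type was Abhd1, which is none of the 4. The calls became 0 with the 16 libraries alone, with the L number of the library names as a term or without the libraries of median correlation under 0.99, which leaves 5 Q111 and 3 Q20 libraries. Leaving out 1 library gave between 0 and 5. The counts stayed at 3 or 4 with DESeq2 size factors, no filter, no sex term, limma with a filter, liver transcripts as a covariate, and without the 6 libraries that correlated least, a setting chosen after seeing the data. The log2 difference of Htt was 0.010 without Q111 male 3, the highest of a range whose lowest value was -0.09, without Q20 male 2. At 6 months DESeq2 called 9 genes. The test between sexes had 1 call with DESeq2, 1 without libraries under 0.99 and 0 without Q111 male 4. Q140 against Q111 had 9 with DESeq2 and 0 without libraries under 0.99, and Q175 against Q111 had 326 there. Q140 against wild type had 102 with DESeq2, 16 without libraries under 0.99 and 168 without the 6 that correlated least. The cause of these shifts was not tested. For 17 named genes other than Htt under up to 31 settings, 525 values were computed, of which 54 lost the call, 7 gained one and 0 changed direction. Htt, which is not in this tally, changed direction without Q111 male 3.

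Q111 and Q20 libraries with the same replicate number did not clearly deviate together, with correlations of their deviations from -0.309 to 0.0234. Differently numbered pairs were not set beside them. With the replicate block on the 16 libraries 0 genes passed, as without the block. Low levels limit 6030443J06Rik and Runx2os1, which lay under 2 CPM, and limma on log2(FPKM + 0.1) gave 6030443J06Rik 0.59 (adjusted p = 0.480).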
